A study of Mus musculus with 2 samples.

Results

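The 10 genes described here encode niche signals and their receptors: the chemokine gene Cxcl12 with the receptor genes Cxcr4 and Ackr3, the KIT ligand gene Kitl with Kit, the colony-stimulating factor gene Csf1 with Csf1r, the fibroblast growth factor genes Fgf2 and Fgf9, and Lif. They were taken by name from the 21887 protein-coding genes of the mouse gene table, with no interval or score in the rule. For each gene, every ARID4B interval that overlapped its gene record or lay within 50 kb of it on build GRCm38 was read. This gave 5 of the 6632 intervals on the list. ARID4B was mapped by chromatin immunoprecipitation and sequencing (ChIP-seq) in testes of wild type mice of a hybrid C57BL6/J and 129/SvEv background, taken at postnatal day 1.5 and pooled from 108 testes. There was 1 ChIP library, made with an anti-ARID4B antibody, and 1 input library of the same age, strain and genotype that serves as its control. No value therefore has a replicate, no test was possible, and the interval list alone does not give the sequencing depth.

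ARID4B is a subunit of the SIN3 histone deacetylase complex and binds the retinoblastoma protein. In the newborn testis, germ cells move to the edge of the cords and come to rest between Sertoli cells, the basement membrane and the cells around the cords, which together form the niche of the future spermatogonial stem cells. CXCL12 is a secreted chemokine that guides germ cells carrying its receptor CXCR4, while ACKR3 is an atypical receptor that binds and removes CXCL12. KIT ligand from Sertoli cells acts on the receptor tyrosine kinase KIT of germ cells, CSF1 acts through the related kinase CSF1R, and FGF2, FGF9 and LIF are growth factors and a cytokine that act on germ cells or on the somatic cells of the gonad.

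RefSeq promoter windows (build GRCm38.p6) were found for 9 of the 10 genes, and Csf1r had no entry. Each window runs from 250 bases before the start of transcription to 50 bases after it. The upstream 250 bases of 4 genes are printed because they show both outcomes. Intervals covered the starts of Cxcl12 and Csf1, Cxcr4 had as many CG dinucleotides in its window as Cxcl12 but no interval, and Kitl had the most of the 9 genes and no interval. Sequences are read from 5′ to 3′ along the transcribed strand. Capitals mark the GC box GGGCGG that SP and KLF factors bind, the TATA box TATAAA and the ETS motif CCGGAAG, on either strand, and overlapping matches run together.
Cxcl12, chr6:117168285-117168534, plus strand: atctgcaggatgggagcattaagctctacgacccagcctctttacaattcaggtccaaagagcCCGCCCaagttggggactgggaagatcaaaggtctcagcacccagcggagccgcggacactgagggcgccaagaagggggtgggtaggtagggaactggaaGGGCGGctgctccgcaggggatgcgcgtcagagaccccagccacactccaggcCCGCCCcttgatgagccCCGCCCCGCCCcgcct
Csf1, chr3:107760470-107760719, minus strand: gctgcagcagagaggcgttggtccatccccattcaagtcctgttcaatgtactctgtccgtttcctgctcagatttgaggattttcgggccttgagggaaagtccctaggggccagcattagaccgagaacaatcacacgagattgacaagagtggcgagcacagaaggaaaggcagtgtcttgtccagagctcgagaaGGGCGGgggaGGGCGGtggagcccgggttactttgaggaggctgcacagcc
Cxcr4, chr1:128592300-128592549, minus strand: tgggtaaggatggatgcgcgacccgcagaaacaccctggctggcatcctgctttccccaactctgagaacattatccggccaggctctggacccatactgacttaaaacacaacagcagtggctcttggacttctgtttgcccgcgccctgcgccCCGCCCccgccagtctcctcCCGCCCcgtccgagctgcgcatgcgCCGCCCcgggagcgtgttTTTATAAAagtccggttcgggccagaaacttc
Kitl, chr10:100015571-100015820, plus strand: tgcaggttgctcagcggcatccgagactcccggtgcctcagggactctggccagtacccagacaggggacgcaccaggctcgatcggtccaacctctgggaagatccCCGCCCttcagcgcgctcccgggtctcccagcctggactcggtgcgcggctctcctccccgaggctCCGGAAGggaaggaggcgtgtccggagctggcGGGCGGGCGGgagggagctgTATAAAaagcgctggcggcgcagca

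Of the 10 genes, 5 had an interval in the record or within 50 kb, against 52.3% of all protein-coding genes, a share near the background. Only at Cxcl12 and Csf1 did the interval touch the gene itself. Those 2 of 10 compare with 30.7% of all protein-coding genes for an interval in the record or within 1 kb, and with 27.1% for one within 1 kb of an end of the record. The intervals near Csf1r, Fgf2 and Lif lay at the ends of neighbouring genes. Cxcr4, Ackr3, Kitl, Kit and Fgf9 had none within 50 kb. The farthest interval inside the limit was that of Csf1r at 45.2 kb, and of the members without one Fgf9 came nearest, at 180.1 kb.

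**Figure D1:**
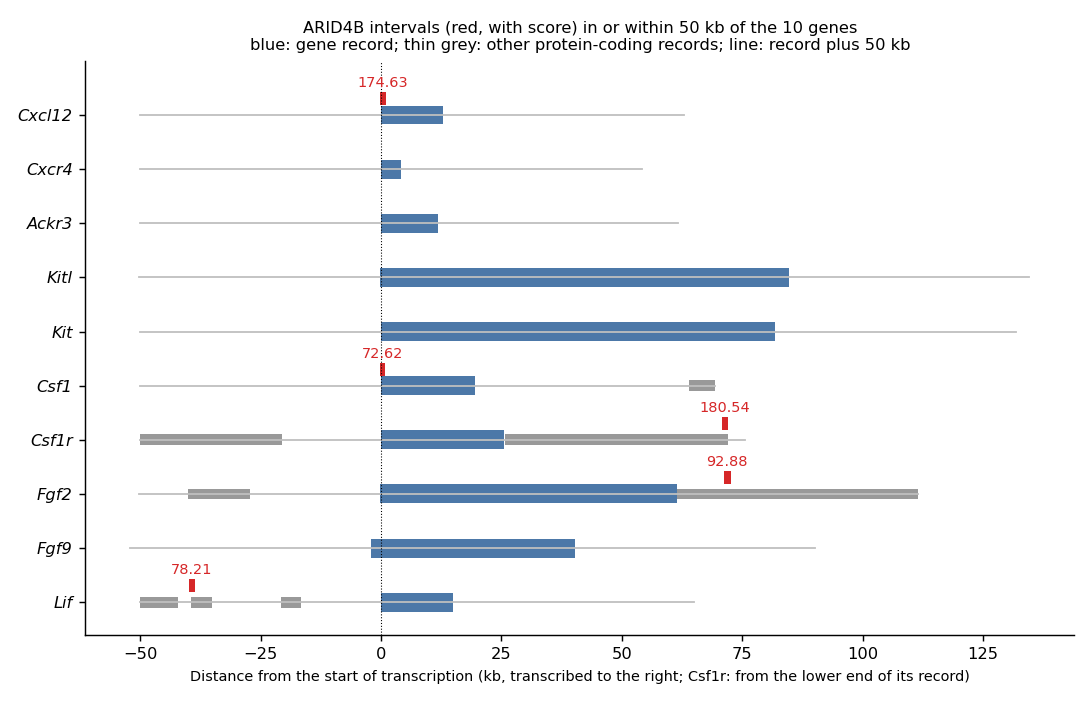
Gene records (blue) of the 10 genes, other protein-coding records (grey) and ARID4B intervals (red, with the authors' score) against distance from the start of transcription in kb, with transcription to the right except for Csf1r, which is drawn in genome order. The intervals of Cxcl12 and Csf1 sit on the start, and those near Csf1r, Fgf2 and Lif sit on grey records.

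The Cxcl12 interval had the higher score of the 2 that touched a member. Cxcl12 (gene 20315, chr6:117168535-117181368, plus strand) had its interval at chr6:117168253-117169573, with a width of 1321 bp and a score of 174.63. The score is the value the authors gave each interval. A higher score was read here as stronger evidence, and scores are used to rank intervals within this list only. This interval was number 1831 of the list and scored above 72.39% of the intervals. It covered the start of transcription printed above, reaching 282 bp upstream and 1038 bp downstream. Every GC box capitalised in the Cxcl12 sequence lies inside it, the farthest from position -187 to -182 relative to the start. No other protein-coding record lay within 50 kb of Cxcl12, and the next intervals were 829.9 kb away on the lower side and 725.2 kb away on the upper side.

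The receptors of CXCL12 had no such interval. Cxcr4 (gene 12767, chr1:128588199-128592299, minus strand) lay 228.2 kb from its nearest interval, which was at the start of Mcm6, a replication helicase subunit gene (chr1:128359089-128360013, score 116.06). Ackr3 (gene 12778, chr1:90203980-90215724, plus strand) lay 272.5 kb from an interval at the homeobox gene Gbx2 (score 197.59). Of all protein-coding genes, 25.4% lay farther from an interval than Cxcr4 and 23.2% farther than Ackr3. Neither receptor gene had another protein-coding record within 50 kb, and among such genes the median distance to an interval was 263.0 kb.

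Csf1 carried one of the lowest scores on the list. Csf1 (gene 12977, chr3:107741048-107760469, minus strand) had its interval at chr3:107759660-107760627, with a width of 968 bp and a score of 72.62. Only 3.35% of the intervals scored lower, the lowest score of the list being 70.02. The interval covered the start of Csf1 and reached 158 bp upstream and 809 bp downstream of it. Both GC boxes capitalised in the Csf1 sequence, at -51 to -46 and -41 to -36, lie inside it. The long noncoding RNA record Gm40121 also spans this place, and its start of transcription was not analysed here. With intervals of at least 100 alone, Csf1 had none and Cxcl12 kept its interval.

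**Figure D2:**
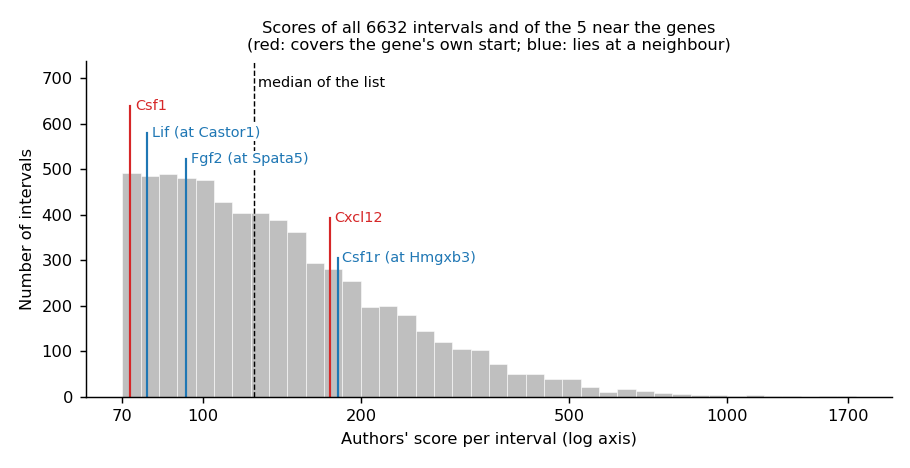
Histogram of the scores of all 6632 intervals (x axis, log scale; y axis, number of intervals), with the median of the list dashed and the 5 intervals near the genes as lines, red where the interval covers the gene's own start and blue where it lies at a neighbour. Csf1 stands at 72.62, at the low edge of the list, and Cxcl12 at 174.63, above the median.

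Both intervals lay mostly downstream of the start. Their midpoints were 378 bp downstream of the start at Cxcl12 and 325.5 bp downstream at Csf1. Among the 3583 intervals that covered starts of a single protein-coding gene, the median midpoint was 224 bp downstream (quartiles 108.5 and 345 bp), and 87.6% had it downstream. The Cxcl12 midpoint thus lay beyond the upper quartile, and that of Csf1 inside the quartiles. The median reach of these intervals was 325 bp upstream and 773 bp downstream.

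Csf1r, the receptor gene of CSF1, had no interval of its own. Csf1r (gene 12978, chr18:61105572-61131139) lay 45.2 kb from an interval at chr18:61176331-61177504 with a score of 180.54. That interval lay within 1 kb of the upper ends of the records of Hmgxb3 and LOC108168367. CSF1R is the defining receptor of macrophages. None of the 8 macrophage genes checked, Csf1r included, had an interval within 1 kb of an end of its record. The share over all protein-coding genes was 27.1%. In the record or within 50 kb, 4 of the 8 had one, against 52.3% of all protein-coding genes. Whole testes were used, so an interval held only by a rare cell type and no interval at all cannot be told apart.

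Neither side of the KIT pair had an interval nearby. Kitl (gene 17311, chr10:100015615-100100416, plus strand) was the member farthest from any, 749.1 kb from an interval inside Dusp6, a MAP kinase phosphatase gene, and within 1 kb of its 3′ end (chr10:99265749-99266543, score 89.66). A share of 11.6% of all protein-coding genes lay farther from an interval than Kitl. Kitl had no other protein-coding record within 50 kb, and among such genes the upper quartile of this distance was 820.2 kb. On the other side of Kitl the next interval was 5472.9 kb away, at Tmtc2. The stretch without an interval around Kitl was thus 6306.8 kb long and held 26 protein-coding records. It was number 24 by length among the 6612 stretches between neighbouring intervals, whose median was 104.4 kb. Kit (gene 16590, chr5:75574987-75656722, plus strand) lay 321.3 kb from an interval at Kdr, a vascular endothelial growth factor receptor gene (score 81.48), and 417.9 kb from one inside Pdgfra (score 157.02).

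The FGF ligand genes and Lif differed in how close a neighbour's interval came. Fgf2 (gene 14173, chr3:37348477-37410106, plus strand) had an interval 9.7 kb beyond its 3′ end, at chr3:37419822-37421223 with a score of 92.88 and a width of 1402 bp. It covered the start of Spata5, from 128 bp upstream to 1273 bp downstream. It also overlapped the upper end of the record of Nudt6, a gene on the minus strand whose record overlaps the end of Fgf2, and began 226 bp upstream of the start given for Nudt6. The interval was 71.2 kb from the start of Fgf2 itself. Fgf9 (gene 14180, chr14:58070671-58112854, plus strand), which is needed for testis formation, lay 180.1 kb from an interval at Zdhhc20 (score 149.41). Lif (gene 16878, chr11:4257568-4272514, plus strand) had an interval 38.6 kb upstream, at chr11:4217766-4218959 with a score of 78.21 and a width of 1194 bp. That interval covered the start of Castor1, an arginine sensor gene, from 459 bp upstream to 734 bp downstream. The related cytokine gene Osm lies between Castor1 and Lif and was 17.8 kb from the same interval.

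**Figure D3:**
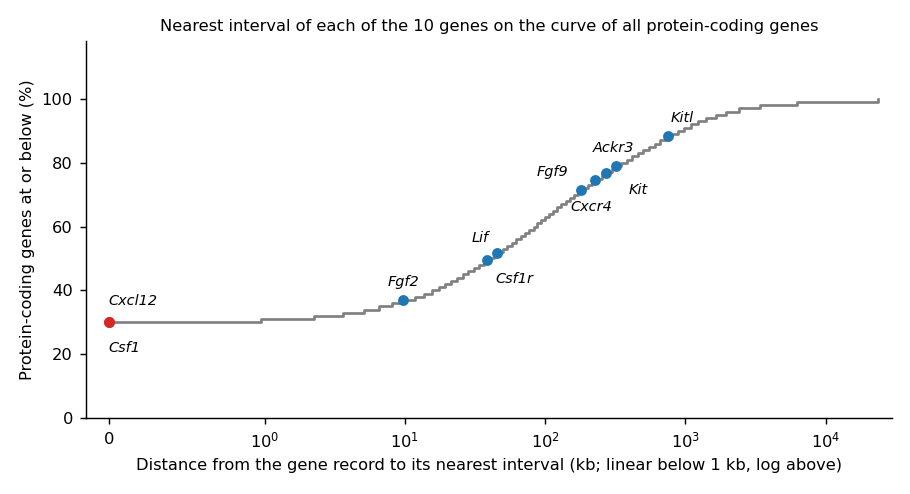
Share of protein-coding genes (y axis, percent) whose nearest interval lies at or below a distance from the gene record (x axis, kb, linear below 1 kb and log above), with the 10 genes placed on the curve. Cxcl12 and Csf1 lie at 0 kb, Fgf2, Lif and Csf1r between 9.7 and 45.2 kb, and Fgf9, Cxcr4, Ackr3, Kit and Kitl between 180.1 and 749.1 kb.

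Over the 10 genes, the distance from the record to the nearest interval had a median of 112.6 kb (quartiles 16.9 and 261.4 kb). The median over 21631 protein-coding genes on chromosomes with intervals was 39.6 kb, with an upper quartile of 236.9 kb. For the 2248 of these with no other protein-coding record within 50 kb, the median was 263.0 kb and the upper quartile 820.2 kb. The order from nearest to farthest was Cxcl12 and Csf1 at 0 kb, then Fgf2, Lif, Csf1r, Fgf9, Cxcr4, Ackr3, Kit and Kitl.

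Most members stood alone on their chromosome. Cxcl12, Cxcr4, Ackr3, Kitl, Kit and Fgf9 had no other protein-coding record within 50 kb, which held for 11.3% of all protein-coding genes. Csf1 had 1 such neighbour, Csf1r and Lif had 3 each and Fgf2 had 4, and the median over all genes was 3. Among the 2484 genes with no neighbour, 24.2% had an interval in the record or within 50 kb, and 19.9% had one within 1 kb of an end. Of the 6 members without a neighbour, Cxcl12 alone had one. Among all genes with 6 or more neighbours, 75.1% had an interval within 50 kb and 31.5% had one at an end. The 50 kb count therefore moves with the number of neighbours more than the count at gene ends does, and its part in the members' count was not tested.

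The promoter windows of the members with an interval did not stand apart by CG content. Windows with an interval within 1 kb of the start had a median of 26 CG dinucleotides (5717 windows of protein-coding genes), and those without one had a median of 7 (15546 windows). The share of windows with an interval was 1.26% at 0 to 4 CG dinucleotides and 64.5% at 30 or more. Kitl had 28, Fgf2 24, Cxcl12 and Cxcr4 20 each, Kit 20 or 21 in its 2 windows, Csf1 16, Fgf9 12, Ackr3 8 and Lif 7. Kitl, Fgf2, Cxcr4 and Kit thus had as many CG dinucleotides as Cxcl12 or more, without an interval. In the class of 20 to 24, to which Cxcl12, Cxcr4, Kit and Fgf2 belong, 42.9% of windows had an interval. In the class of 25 to 29, which holds Kitl, 51.0% had one. Csf1 fell in the class of 15 to 19, where 34.2% had one, and Fgf9 in that of 10 to 14, where 22.5% had one. Ackr3 and Lif fell in the class of 5 to 9, where 7.21% had one. By start of transcription, 2 of the 9 genes with a window had an interval within 1 kb, against 28.0% of 17492 protein-coding genes, and in the same 2 the interval covered the start, against 24.3%.

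**Figure D4:**
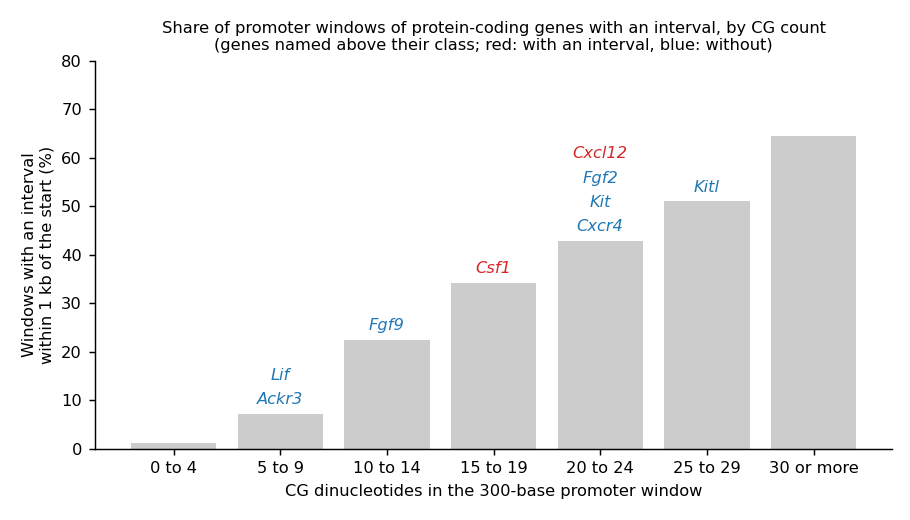
Share of promoter windows of protein-coding genes with an interval within 1 kb of the start (y axis, percent) by the number of CG dinucleotides in the 300-base window (x axis), with the members named above their class, red with an interval and blue without. Shares rise from 1.26 to 64.5%, and Kitl, in the class at 51.0%, has no interval.

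The members' promoters also differed in the short motifs they held. The GC box GGGCGG was found in 7 of the 9 genes' windows, against 46.2% of all windows of protein-coding genes, 74.6% of those with an interval within 1 kb and 35.8% of those without. Cxcl12 held 5 matches, Cxcr4 and Kitl 3 each, Csf1 2, and Ackr3, Kit and Fgf2 1 each, while Fgf9 and Lif held none. The TATA box TATAAA was found at Cxcr4, Ackr3 and Kitl, none of which had an interval, and in 12.6% of all windows. Windows with an interval held it in 5.32% and windows without one in 15.3%. Of the E2F motifs TTTGGCGC and TTTCCCGC, the second was found once, from -22 to -15 at Ackr3. Either was present in 2.02% of all windows. The ETS motif CCGGAAG was found at Kitl (11.6% of all windows) and the GATA motif AGATAA at Fgf9 (9.65%). The hypoxia motif TACGTG (3.28%), the CRE TGACGTCA (2.23%) and the E-box CACGTG (7.84%) were in none of the 9. Both strands were searched, and a match describes letters and not binding.

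Partners in the same pathways were read in the same way. Across 5 lists of 88 pathway genes, 31 (35.2%) had an interval within 1 kb of an end, against 27.1% of all protein-coding genes. The lists were chosen with earlier results of these data known, so their shares are descriptions only. The FGF receptors and their proximal signalling genes had 10 of 13. These were the receptor genes Fgfr1 (score 222.19), Fgfr2 (208.75), Fgfr3 (157.68), Fgfr4 (81.3) and Fgfrl1 (192.46), the adaptor genes Frs2 (154.55) and Frs3 (114.23, within 1 kb of Tomm6 and Prickle4 too), the phosphatase gene Ptpn11 (179.34), the co-receptor gene Kl (96.02) and Fgfbp3 (105.61). Klb, Fgfbp1 and Flrt3 had none. The best scores of these 10 genes had a median of 156.12, and the median over all genes with an interval at an end was 132.24.

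Of the 20 FGF ligand genes other than Fgf2 and Fgf9, 5 had an interval at an end, against 27.1% of all protein-coding genes. They were Fgf11 (170.2, within 1 kb of Tmem102 too), Fgf18 (114.0), Fgf5 (112.83), Fgf8 (99.3) and Fgf3 (78.91), with a median of 112.83. Over all genes with an interval at an end, the median best score was 132.24. Fgf12, Fgf14 and Fgf23 had an interval inside the record but over 1 kb from its ends. In the record or within 1 kb, 8 of the 20 thus had one, against 30.7% of all protein-coding genes. The other FGF ligand genes, among them Fgf1, Fgf7 and Fgf10, had none in the record or within 1 kb, as was the case for Fgf2 and Fgf9.

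In the KIT and CSF1 receptor family and its signalling genes, 7 of 19 had an interval at an end (36.8%, against 27.1% of all protein-coding genes). In the record or within 1 kb, 10 of 19 had one (52.6%, against 30.7%). Pik3r1, the regulatory subunit gene of phosphoinositide 3-kinase, led with 437.36, followed by the ligand gene Pdgfc (242.1), the ubiquitin ligase gene Cbl (149.64), the adaptor genes Shc1 (128.94, within 1 kb of Pygo2 too) and Gab2 (123.37), Sos1 (110.49) and Pik3ca (93.09). Il34, which encodes the second ligand of CSF1R, had none nearer than 40.1 kb, and Flt3 and Flt3l had none within 1 kb. The intracellular signalling genes Grb2, Ptpn6, Lyn and Src had none within 1 kb either. Pdgfra, Pdgfa and Pdgfb had an interval inside the record but over 1 kb from its ends. At Pdgfra the start of transcription lies inside the record, and the better of its 2 intervals (272.36) lay 505 bp from that start.

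On the chemokine side, 4 of 18 genes had an interval at an end (22.2%, against 27.1% of all protein-coding genes). These were the G protein subunit genes Gnb1 (335.74), Gnai1 (256.94) and Gnai2 (83.67) and the arrestin gene Arrb2 (96.43). Gnai2 also had a higher-scoring interval (194.75) inside its record but over 1 kb from its ends. The signalling genes Gnai3, Arrb1, Grk2 and Rgs16 had none at an end. None of the 8 other receptor genes on the list (Cxcr1, Cxcr2, Cxcr3, Cxcr5, Cxcr6, Ackr1, Ackr2 and Ackr4) had one, as was the case for Cxcr4 and Ackr3, and neither had the ligand genes Cxcl14 and Cxcl16. In the LIF and interleukin-6 family, 5 of 18 had one at an end (27.8%, against 27.1% of all protein-coding genes), a share near the background. Socs3, the feedback inhibitor gene of this cytokine pathway, had 658.13, number 45 of the whole list. The cytokine gene Clcf1 had 228.77, the kinase gene Jak1 221.54, Il6st, which encodes the shared receptor chain gp130, 170.52, and Il6ra 75.52. Lifr, the specific receptor gene of LIF, lay 200.2 kb from its nearest interval, and Stat3 lay 18.8 kb away.

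**Figure D5:**
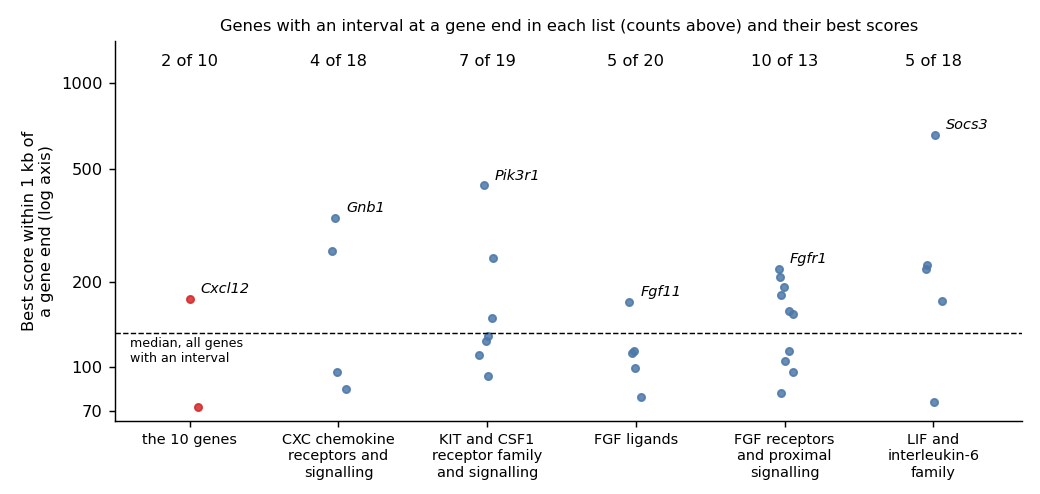
Best score within 1 kb of a gene end (y axis, log scale) for each gene with an interval there, by list (x axis), with the number of such genes of each list above and the median over all protein-coding genes with an interval dashed. The FGF receptor list has 10 of 13 genes, the 10 niche genes have 2, and Socs3 has the highest score shown.

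Markers of testis cell types were read on the same list. An interval within 1 kb of an end was found at 7 of 10 Sertoli cell genes, 2 of 10 germ cell genes, 0 of 6 Leydig cell genes, 0 of 8 macrophage genes, 3 of 6 endothelial genes and 1 of 5 peritubular myoid genes, against 27.1% of all protein-coding genes. The best scores at these ends had a median of 352.5 for Sertoli cell genes, 126.92 for germ cell genes and 81.48 for endothelial genes. The 1 myoid gene, Des, had 72.66, near the lowest score of the list, 70.02. Over all genes with an interval at an end the median was 132.24. Intervals do not measure how many cells of a type were present. The scores of the list had a median of 125.0 (quartiles 92.3 and 184), and widths a median of 1084 bp.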

How the data were processed

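ChIP-seq was done on 1 ARID4B library and 1 input library. Per the submitters' processing notes, BWA, MACS and build mm9 were used, while the list is named for mm10; their versions and settings, not given in the sources used here, limit what the values mean. The authors deposited 1 list of intervals, each with a score. The list's name calls the score a p-value, but no score is below 70, so it served only to rank and filter intervals. Depth is unknown. The intervals were read as GRCm38: of the 6448 on chromosomes in the promoter table, 72.0% lay within 1 kb of a start of transcription of a protein-coding gene, and 4.8 or 4.9% when moved by 10 kb either way. Overlap was at least 1 bp, and positions count from 1.

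Gene records came from the RefSeq table of GRCm38.p6 and starts, strand and sequence from its promoter table (17492 of the 21887 protein-coding genes). Counts over the members were set beside the same counts over all protein-coding genes, with no test. Python 3.11.15, numpy 2.4.6 and pandas 2.3.3 were used, and the overlap step was tested on simulated data. The members and the 5 pathway lists were chosen with earlier results of these data known. Named were all 10 members, the genes at intervals near them, and the 5 best of each list; the other genes, including those at the nearest interval beyond 50 kb, were named after their values were seen. Exons, introns, aligned reads and input values were not analysed here.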

Additional observations from a re-analysis of the deposited data

How the results depend on the processing

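With intervals scoring above the median alone, or with those of 100 or more, 2 members had an interval in the record or within 50 kb (34.0 and 41.8% of all protein-coding genes), 1 had one in the record or within 1 kb (16.7 and 22.0%), 1 had one at an end (14.8 and 19.5%), and the 2 intervals counted had a median score of 177.58, against 92.88 for all 5. With a flank of 20 kb, 3 members had an interval, with 3 intervals in all (41.8% of all genes). With 100 kb the same number of members, 5, had 7 intervals with a median score of 78.21 (62.4% of all genes). Counting only intervals nearest to the member gave 2 members and 2 intervals, with a median of 123.62. The share over all genes was not computed for this setting. Measured from the start of transcription, 3 of the 9 members with a known start had an interval within 50 kb. The share was 48.0% of the 17492 protein-coding genes with a known start. Csf1r, counted by its record above, had no start and could not be counted. This alternative was chosen after seeing the data. Windows of 500 bp or 5 kb, midpoints, and starts in place of gene ends gave 2 members with an interval at the gene. The shares at gene ends over all protein-coding genes were 25.3% for 500 bp, 32.1% for 5 kb and 24.7% for midpoints. For starts, over genes with a known start, they were 28.0% within 1 kb and 24.3% covering the start. No paired analysis was possible because there was 1 library of each kind. Depth is unknown, so the lowest detectable enrichment is too.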

Other observations

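The receptor tyrosine kinase genes related to Kit and Csf1r lie beside them on the chromosome. On chr5, Kit stands between Pdgfra and Kdr. Pdgfra (chr5:75151322-75198206) had 2 intervals in its record, the better one at chr5:75152756-75154728 with a score of 272.36, 505 bp from its start of transcription. Kdr (chr5:75932827-75979072) had 1, which covered its start, with a score of 81.48. No interval lay in the 820.9 kb between the upper of the 2 Pdgfra intervals (chr5:75156102-75157131, score 157.02) and that of Kdr, a stretch in which Kit was the only whole protein-coding record. On chr18, Pdgfrb lay 8.9 kb and Csf1r 45.2 kb from their nearest intervals, and neither had one in its record or within 1 kb. Flt3 and Flt1, another pair on chr5, had none and 1 (score 109.04, covering the start). These pairs were picked after the values were seen.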
